A study of Mus musculus with 3 samples.

Results

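The genes examined here encode the mitochondrial respiratory chain and the ATP synthase, and the peaks examined are the NR2F2 binding peaks at their promoters. Genes were chosen by symbol (Ndufa, Ndufb, Ndufc, Ndufs, Ndufv, Uqcr, Cox4 to Cox8 and Atp5 families, with Sdha to Sdhd and Cyc1, without pseudogenes marked -ps), which gave 97 of 26180 curated RefSeq genes. Their peaks were those with an edge within 1 kb of a transcription start site (TSS) of the gene, 71 of 10069 peaks in all. The peaks had been called on the merged ChIP reads, so the ChIP counts at them were selected to be high and are given as a description. The symbols also brought in 8 Ndufaf genes, which encode complex I assembly factors and not subunits, Cox7a2l, a supercomplex factor, and Ndufa11b, which is annotated as a transcribed pseudogene.

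NR2F2, also named COUP-TFII, is an orphan nuclear receptor of interstitial cells in the fetal testis. Its binding was profiled by ChIP-seq in whole testes, freed of the mesonephros, from E14.5 embryos of CD-1 mice, an outbred stock with no allele or treatment named in the labels. There were 2 ChIP libraries, from independent experiments with 18 µg of chromatin and 30 pooled testes per the series description, and 1 input library of chromatin without immunoprecipitation. Whole testes pool interstitial, Sertoli, germ and other cells, so the counts cannot be assigned to a cell type, and counts at peaks do not measure expression, so the tissue label was not checked against marker genes. Counts at all peaks summed to 73251 in the input, 426784 in ChIP replicate 1 and 364261 in replicate 2, which are totals at peaks and not sequencing depths.

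The respiratory chain passes electrons from NADH and succinate to oxygen through complexes I to IV and pumps protons across the inner mitochondrial membrane, and the ATP synthase, complex V, uses that gradient to make ATP. Complex I takes electrons from NADH, complex II (succinate dehydrogenase) from succinate, complex III passes them to cytochrome c, and complex IV reduces oxygen. Nearly all of their subunits are encoded in the nucleus, and NRF1, the ETS factor GABPA and the nuclear receptor ESRRA are known regulators of many of these genes. Nuclear receptors of the NR2F and ESRR families both recognise the half-site AGGTCA, which NR2F2 binds best as a repeated pair and ESRRA as the extended form TCAAGGTCA.

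The sequence under the peaks is shown first because the rule did not use it. The stretches below are the part of the strongest peak of each complex that lies outside annotated exons, taken from the mm10 (GRCm38) reference and printed 5′ to 3′ on the strand of the gene. Capitals mark the half-site AGGTCA, which reads TGACCT where it lies on the other strand. The Ndufs8, Sdha, Uqcrc1 and Atp5e stretches are intronic and the Cox5b stretch lies upstream of the gene.
Ndufs8 chr19:3912382-3912466, minus strand: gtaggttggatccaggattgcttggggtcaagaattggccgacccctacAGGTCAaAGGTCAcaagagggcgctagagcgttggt
Sdha chr13:74349969-74350145, minus strand: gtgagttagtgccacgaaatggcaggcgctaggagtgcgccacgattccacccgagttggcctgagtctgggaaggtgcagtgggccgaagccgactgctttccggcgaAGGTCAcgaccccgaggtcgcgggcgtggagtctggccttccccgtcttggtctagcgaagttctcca
Uqcrc1 chr9:108936788-108937006, plus strand: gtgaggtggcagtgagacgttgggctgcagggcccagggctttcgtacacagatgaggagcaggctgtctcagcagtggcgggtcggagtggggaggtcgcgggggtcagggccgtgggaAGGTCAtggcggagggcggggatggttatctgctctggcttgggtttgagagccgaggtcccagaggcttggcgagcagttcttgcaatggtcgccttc
Cox5b chr1:36691166-36691465, plus strand: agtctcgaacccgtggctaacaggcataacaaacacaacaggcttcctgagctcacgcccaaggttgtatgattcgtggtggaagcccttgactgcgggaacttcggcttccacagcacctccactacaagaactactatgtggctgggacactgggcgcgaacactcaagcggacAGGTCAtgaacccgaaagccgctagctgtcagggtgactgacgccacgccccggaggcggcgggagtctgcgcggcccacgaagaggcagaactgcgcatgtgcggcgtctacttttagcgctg
Atp5e chr2:174463651-174463950, minus strand: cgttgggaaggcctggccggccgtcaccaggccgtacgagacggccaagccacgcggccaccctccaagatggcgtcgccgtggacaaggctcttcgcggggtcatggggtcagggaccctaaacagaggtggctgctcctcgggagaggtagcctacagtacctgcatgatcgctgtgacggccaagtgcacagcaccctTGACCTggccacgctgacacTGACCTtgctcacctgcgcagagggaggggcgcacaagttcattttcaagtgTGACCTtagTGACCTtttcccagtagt

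The Atp5e peak lay wholly in an intron and held 4 half-sites, all in the same direction. In 1 pair they were 3 bases apart. The Ndufs8 peak also held 4 half-sites, and 1 pair formed a direct repeat with 1 base between its members. These were the highest numbers of half-sites in any member peak, and both peaks were among the 5 with the most ChIP counts in the series. A pair of half-sites in the same direction with at most 10 bases between them was present in 3 of 71 member peaks (4.23%, at Ndufs8, Ndufa2 and Atp5e) and in 33 of 5769 other peaks within 1 kb of a TSS (0.572%).

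At least 1 AGGTCA, on either strand, was present in 46 of 71 member peaks (64.8%, Wilson 95% interval 53.2% to 74.9%). The share was 25.2% of the 5769 other peaks within 1 kb of a TSS, 54.3% of the 4224 peaks farther from any TSS, and 13.9% of the promoters of all 21000 protein-coding genes (250 bases before to 50 after the TSS, the same length as a peak). At least 2 half-sites were present in 9 member peaks (12.7%), in 3.52% of the other peaks near a TSS and in 17.1% of the peaks farther away. The same letters in reversed order, ACTGGA, were present in 5 member peaks (7.04%) and in 12.1% of the others, lower in the member peaks. Median GC content was 63.7% in member peaks and 65.3% in the others. Intervals here cover counting of peaks only, and the comparisons carry no test.

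By complex, the half-site was most frequent in complex II and complex V. Complex V had it in 14 of 16 peaks, complex II in 4 of 4, complex III in 5 of 8, complex I in 17 of 31 and complex IV in 4 of 8. Other housekeeping groups stood lower, with 15 of 43 peaks of mitochondrial ribosomal protein genes (34.9%), 5 of 19 of proteasome genes (26.3%) and 6 of 48 of cytosolic ribosomal protein genes (12.5%).

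**Figure D1:**
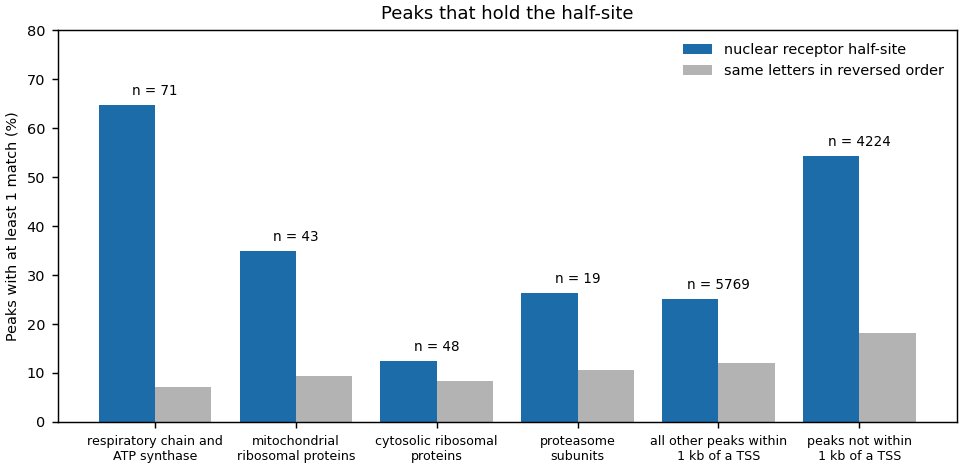
Percent of peaks (y axis) with at least 1 AGGTCA half-site on either strand (blue) and with the same letters in reversed order (grey), by group of peaks (x axis, n above each pair of bars). The half-site bar is highest for the respiratory chain and ATP synthase peaks, at 64.8% of 71, against 25.2% of the other peaks within 1 kb of a TSS, while the reversed letters stay between 7.04% and 18.2% in the 6 groups.

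Half-sites were more frequent in the highest than in the lowest quartile of ChIP count, in members and in other promoters. In the highest quartile among peaks within 1 kb of a TSS, 33 of 42 member peaks (78.6%) and 38.4% of 1392 other peaks held one. In the lowest quartile it was 3 of 7 member peaks and 17.1% of 1477 others. The 46 member peaks with a half-site had a median ChIP count, averaged over the replicates, of 64.0, and the 25 without had 45.0. Of 59 half-sites in member peaks, 19 (32.2%) lay within 50 bp of the peak midpoint, against 43.0% of 1683 in the other peaks near a TSS. That span is about 100 of the 300 bases of a peak, so half-sites in member peaks were not gathered at the midpoint by this count. In the central 100 bases alone, 21.1% of member peaks and 11.02% of the others held a half-site.

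The extended form AGAGGTCA or AGGGGTCA was present in 10 member peaks (14.1%, Wilson 95% interval 7.83% to 24.0%), in 6.08% of the other peaks near a TSS and in 16.4% of the peaks farther away. AGAGGTCA contains the half-site and AGGGGTCA does not. The form TCAAGGTCA, which contains it too, was present in 6 member peaks (8.45%), in 0.780% of the other peaks near a TSS and in 5.07% of the peaks farther away. In the mostly upstream promoter window it was present at 0.357% of all protein-coding genes and at 2 of the 68 members with a peak (2.94%). The sites below, each 30 bases and printed on the strand that reads the motif in capitals, show TCAAGGTCA in 4 ATP synthase, complex II and complex IV peaks and the extended form in 1 complex I and 1 complex II peak.
Sdhd chr9:50603795-50603824, plus strand: tttcgagggcTCAAGGTCActctacaaccc
Cox6c chr15:35937797-35937826, plus strand: aacgacccaaTCAAGGTCAacctggccgcg
Atp5b chr10:128083485-128083514, minus strand: aggcccaagcTCAAGGTCAcggggagaaga
Atp5o chr16:91931320-91931349, plus strand: gtcctggatgTCAAGGTCAagacagagaaa
Ndufs8 chr19:3912479-3912508, minus strand: ttcatagggtcAGAGGTCAaggggaaggtc
Sdhb chr4:140961172-140961201, plus strand: cctcagactccAGAGGTCAccttaggaaca

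Motifs of other factors were searched on both strands. The YY1 motif AAGATGGCG was present in 10 member peaks (14.1%) and in 2.89% of the other peaks near a TSS. The NRF1 motif GCGCATGCG was present in 4 (5.63%, at Ndufs8, Ndufaf4, Ndufaf5 and Atp5j) against 1.80%. The ETS motif CCGGAAG was present in 13 (18.3%) against 15.9%, CCAAT in 23.9% against 24.6%, TGACGTCA in 4.23% against 2.25%, and the SP motif GGGCGG in 39.4% against 57.6%. A match describes the letters under a peak and does not show which factor was bound.

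Of the 97 genes, 68 had a peak (70.1%) and 29 did not. Among all 21000 protein-coding genes, expressed or not, 5894 had one (28.1%), and the shares were 53.8% (42 of 78) for mitochondrial ribosomal proteins, 52.7% (48 of 91) for cytosolic ribosomal proteins and 35.3% (18 of 51) for proteasome subunits. Because the peaks defined the members with a peak, these shares are a description with no test. Atp5g3, Atp5j and Ndufb11 had 2 peaks each.

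A peak was present at all 4 genes of complex II, 8 of 9 of complex III, 14 of 17 of complex V, 30 of 39 of complex I and 8 of 19 of complex IV. Of the 8 complex I assembly factors, 4 had one. Of the 7 core subunits of complex I encoded in the nucleus, which make up its NADH-oxidising and quinone-reducing modules, 5 had a peak and Ndufs3 and Ndufs7 did not. Complex IV includes genes for alternative isoforms of its subunits. Of 8 genes for tissue-restricted or inducible isoforms, only Cox6a2, a heart and skeletal muscle isoform, had a peak, and Cox4i2, Cox6b2, Cox7a1, Cox7b2, Cox8b, Cox8c and Ndufa4l2 did not. Their broadly expressed counterparts were split too, with a peak at Cox4i1, Cox8a and Ndufa4 and none at Cox6a1, Cox6b1, Cox7a2 and Cox7b.

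The other genes without a peak were Ndufa6, Ndufa7, Ndufa8, Ndufb4c, Ndufc2, Ndufs5 and Ndufa11b of complex I, Ndufaf2, Ndufaf3, Ndufaf7 and Ndufaf8 among the assembly factors, Cox7a2l, Uqcr11 of complex III, and Atp5d, Atp5g1 and Atp5j2 of complex V. The distance limit was not close to any gene. The peaks farthest inside it lay 460 bp (Atp5j) and 439 bp (Atp5g3) from the TSS, and the nearest peaks of the first genes outside it lay 3825 bp (Cox7b) and 6972 bp (Ndufa7) away. The peak at 460 bp from Atp5j had 12, 36 and 43 counts in the input and ChIP replicates 1 and 2, and the peak at 439 bp from Atp5g3 had 14, 80 and 79. Of the 3 ATP synthase genes without a peak, Atp5d was 10545 bp, Atp5j2 23936 bp and Atp5g1 57234 bp from the nearest one.

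**Figure D2:**
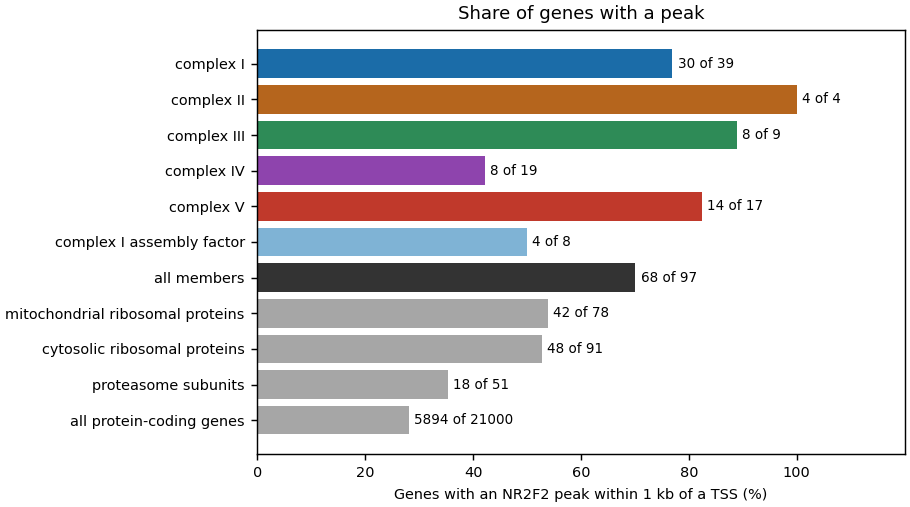
Percent of genes with an NR2F2 peak within 1 kb of a TSS (x axis) for each complex, all 97 members and 4 comparison sets (y axis), with the number of genes with a peak of all genes beside each bar. Complexes I, II, III and V stand between 76.9% and 100%, complex IV at 42.1%, and all protein-coding genes at 28.1%.

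Counts at the 71 member peaks ran from 1 to 18 in the input (median 8), from 15 to 312 in ChIP replicate 1 (median 62) and from 9 to 273 in replicate 2 (median 50). The mean of both ChIP replicates had a median of 55.5 over the member peaks, against 36.5 over the 5840 peaks within 1 kb of a TSS and 34 over all peaks. Some related groups had medians close to it, 64.8 at genes for electron carriers and shuttles, 54.2 at glycolysis genes, 50 at citrate cycle and pyruvate dehydrogenase genes and 49.5 at mitochondrial ribosomal protein genes. Others were lower, with 41.5 at assembly factor genes outside the Ndufaf family and 35 at regulators of mitochondrial biogenesis. Of the member peaks, 26 (36.6%) were in the top 10% of all peaks by ChIP count, as were 11.7% of the peaks near a TSS, and 10 were among the top 100. ChIP to input ratios were expressed as log2 values relative to the median of all peaks, with 0.5 added to each count, because the depths of the libraries are not known here. The median over member peaks was 0.43 ± 0.14 (SD, n = 2 ChIP libraries sharing the 1 input), at 0.53 in replicate 1 and 0.34 in replicate 2, against 0.08 over the peaks near a TSS. In the other groups the median was 0.40 at glycolysis, 0.35 at citrate cycle and pyruvate dehydrogenase, 0.34 at assembly factor genes outside the Ndufaf family and 0.26 at electron carrier and shuttle genes. The median was 0.25 at cytosolic and 0.20 at mitochondrial ribosomal protein genes, -0.19 at proteasome genes and -0.27 at regulators of mitochondrial biogenesis. Within the members it was 0.76 for complex V, 0.45 for complex I, 0.44 for complex III, 0.18 for complex IV and 0.12 for complex II.

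edgeR's quasi-likelihood test placed 7 of the 71 member peaks (9.86%) above the typical peak at a Benjamini-Hochberg adjusted p under 0.05. Over all peaks it placed 1.53% above, and over those near a TSS 1.90%. The peaks were chosen on the same ChIP reads, so nothing is read from the difference. None was below, where the share over all peaks was 0.0497%. Since the peaks were called for high ChIP counts, nothing is read from this absence either. DESeq2 gave 21 of the 71 and 699 of all peaks an adjusted p. It placed 3 members above, at Ndufs8, Ndufs6 and Atp5e, beside 3.15% of the 699. With DESeq2 size factors in edgeR these 3 were above too, beside 0.387% of all peaks. With only peaks of at least 10 input counts tested, 29 of the members and 2427 in all, 6 members were above and 2.39% of all those tested. Of the 6, Ndufs8, Ndufb1 and Atp5e were among the 7 and Sdha, Ndufa11 and Atp5mpl were not.

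**Figure D3:**
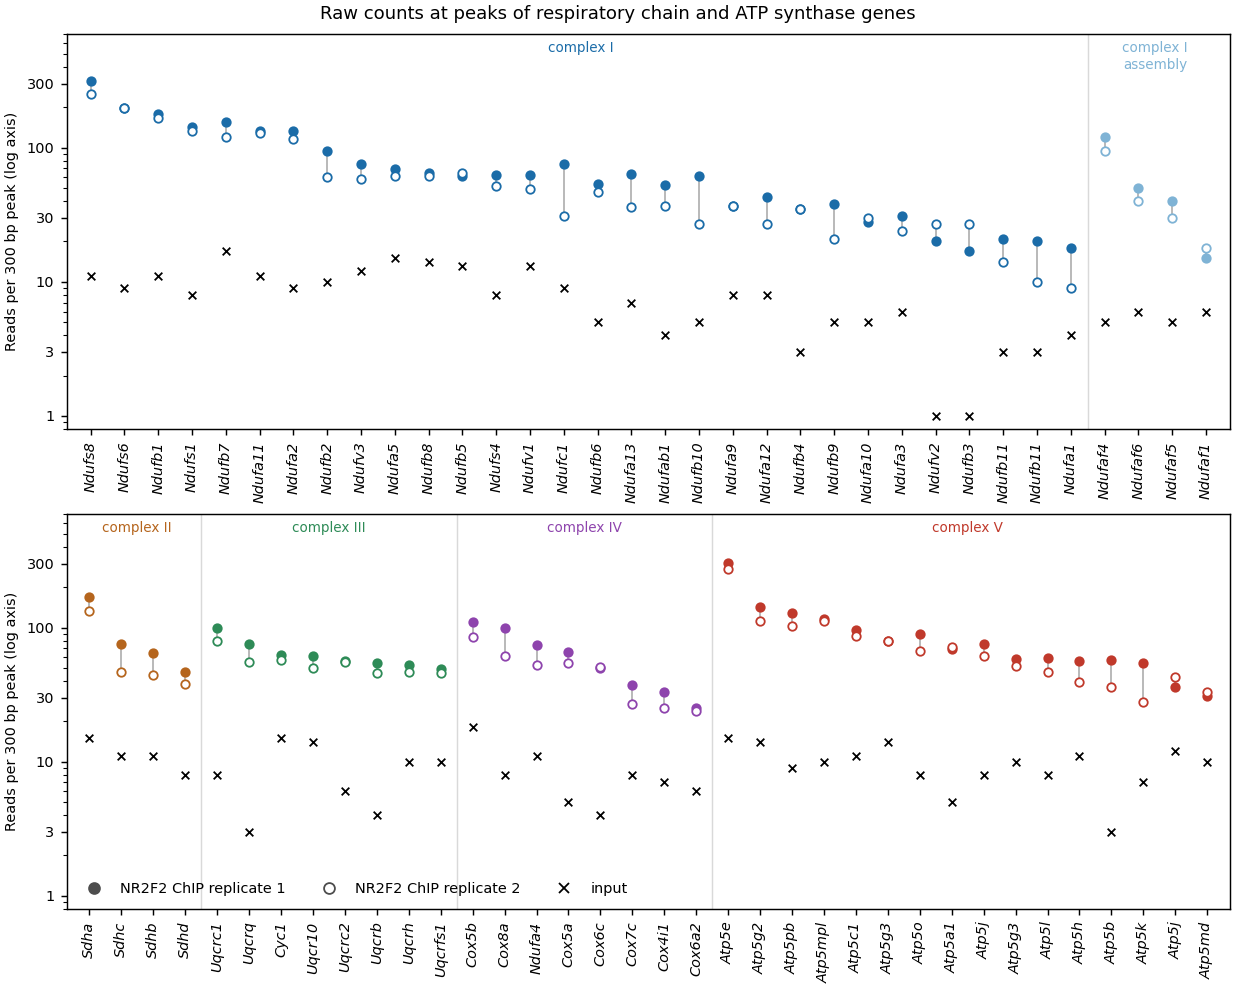
Raw reads per 300 bp peak (y axis, log scale) for 70 of the 71 member peaks (x axis, by gene), grouped by complex and ordered by mean ChIP count within each. Filled circles are ChIP replicate 1, open circles replicate 2, crosses the input, and a grey line joins the replicates. Both ChIP counts are above the input at each peak shown, with the highest at Ndufs8 and Atp5e and the lowest at Ndufa1 and Ndufb11.

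Complex I had the widest range of ChIP counts. Ndufs8, a core subunit that binds iron-sulfur clusters, had 11 input counts, 312 in ChIP replicate 1 and 250 in replicate 2 at chr19:3912382-3912681, with the midpoint in the 5′ UTR. That was the fifth strongest peak of the series, and its log2 ratio to the typical peak was 2.35 ± 0.31 (SE of the edgeR fit, as for every single peak below). Ndufs6, an accessory subunit, had 9, 196 and 198 counts at chr13:73328249-73328548, with the midpoint in a coding exon, and a log2 ratio of 2.14 ± 0.37. The replicates at Ndufs6 differed by 2 counts, whereas replicate 1 held 53.95% of the ChIP counts at all peaks (exact binomial p = 0.0956, unadjusted).

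Ndufb1, an accessory subunit of the membrane arm, had 11, 179 and 167 counts (log2 ratio 1.66 ± 0.36) at a peak that spanned its TSS and also lay within 1 kb of the TSS of Cpsf2. Ndufs1, the largest core subunit, had 8, 143 and 133 (1.79 ± 0.42) at a peak upstream of the gene. Its midpoint lay in the 5′ UTR of Eef1b2, whose TSS was within 1 kb and which encodes a translation elongation factor. Ndufa2, an accessory subunit of the matrix arm, had 9, 133 and 116 (1.47 ± 0.42) at a peak also within 1 kb of the TSS of Ik. The assembly factor Ndufaf4 had 5, 121 and 95 (2.11 ± 0.52). These peaks, with Ndufs8, Ndufs6 and Atp5e, were the 7 above the typical peak, and at each of them the lower ChIP count was more than 10 times the input count.

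The core subunit Ndufv1, which binds NADH, had 13 input counts and 63 and 49 ChIP counts, near the typical peak with a log2 ratio of -0.21 ± 0.46. Ndufv2, another core subunit, had 1, 20 and 27, and with 1 input count its ratio is poorly determined (2.21 ± 1.14). Ndufb3 had 1 input count too, with 17 and 27 ChIP counts. The strong peaks at Ndufb7 (17, 154 and 119) and Ndufa11 (11, 132 and 128) did not pass the threshold in the fit of all peaks.

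The weakest peaks of complex I by ChIP count lay on the X chromosome. Ndufa1 had 4 input counts, 18 in replicate 1 and 9 in replicate 2. The Ndufb11 peaks had 3, 21 and 14 downstream of the TSS and 3, 20 and 10 upstream of it. All 135 X-linked peaks near a TSS had a median of 22 ChIP and 4 input counts, against 37 and 7 on the autosomes, and their median log2 ratio was 0.22 against 0.07. The log2 ratios were -0.56 ± 0.90 at Ndufa1 and 0.22 ± 0.91 and 0.00 ± 0.98 at Ndufb11.

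All complex II genes had a peak. Sdha, the flavoprotein that oxidises succinate, had 15 input counts, 168 in replicate 1 and 133 in replicate 2 (log2 ratio 1.01 ± 0.34), in an intron at chr13:74349969-74350268. The membrane anchor Sdhc had 11, 76 and 47, the iron-sulfur subunit Sdhb 11, 65 and 44, and the membrane anchor Sdhd 8, 47 and 38. Sdha had the highest count of the 4 in both ChIP replicates, and the log2 ratios of the other 3 lay between -0.01 and 0.16. Each of the 4 peaks held 1 AGGTCA.

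In complex III, Uqcrc1, a core subunit, had 8, 100 and 80 counts (log2 ratio 1.17 ± 0.48). Uqcrq, which encodes a small subunit, had 3, 75 and 55, and its log2 ratio of 2.10 ± 0.68 rests on 3 input counts. Cyc1, cytochrome c1, which hands electrons to cytochrome c, had 15, 62 and 57, a log2 ratio of -0.33 ± 0.43. Uqcr10 had 14, 61 and 50. Mean ChIP counts of the 8 peaks ran from 47.5 at Uqcrfs1 to 90.0 at Uqcrc1.

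Among complex IV genes, Cox5b had the strongest peak, upstream of the gene at chr1:36691166-36691465, with 18, 109 and 85 counts. Its input count was the highest of the 71 peaks, and its log2 ratio was 0.11 ± 0.37. Cox8a had 8, 99 and 61, Ndufa4, which was first named as a complex I subunit, 11, 74 and 53, and Cox5a 5, 66 and 54. The log2 ratio at Cox5a was 1.26 ± 0.60. The remaining peaks, at Cox6c, Cox7c, Cox4i1 and Cox6a2, had mean ChIP counts from 24.5 to 50.5.

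Complex V had the highest median ChIP count of the complexes, 69.2. Atp5e, the epsilon subunit of the central stalk, had 15 input counts, 303 in replicate 1 and 273 in replicate 2 at chr2:174463651-174463950. This was the third strongest peak of the series, and its log2 ratio was 1.95 ± 0.28. Atp5g2, a gene for the proton-carrying c subunit, had 14, 142 and 111 (0.85 ± 0.37). Atp5pb, subunit b of the peripheral stalk, had 9, 129 and 103 (1.37 ± 0.43), and Atp5mpl, a small membrane subunit, 10, 115 and 111 (1.18 ± 0.42).

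The 3 genes for the c subunit were not alike, since Atp5g2 had 1 peak, Atp5g3 had 2 and Atp5g1 had none. The alpha subunit Atp5a1 (5, 69 and 72) and the catalytic beta subunit Atp5b (3, 57 and 36) had log2 ratios of 1.50 ± 0.58 and 1.62 ± 0.73. The lowest ratios in complex V were at Atp5md (10, 31 and 33; -0.63 ± 0.54) and at the upstream Atp5j peak (-0.59 ± 0.50).

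**Figure D4:**
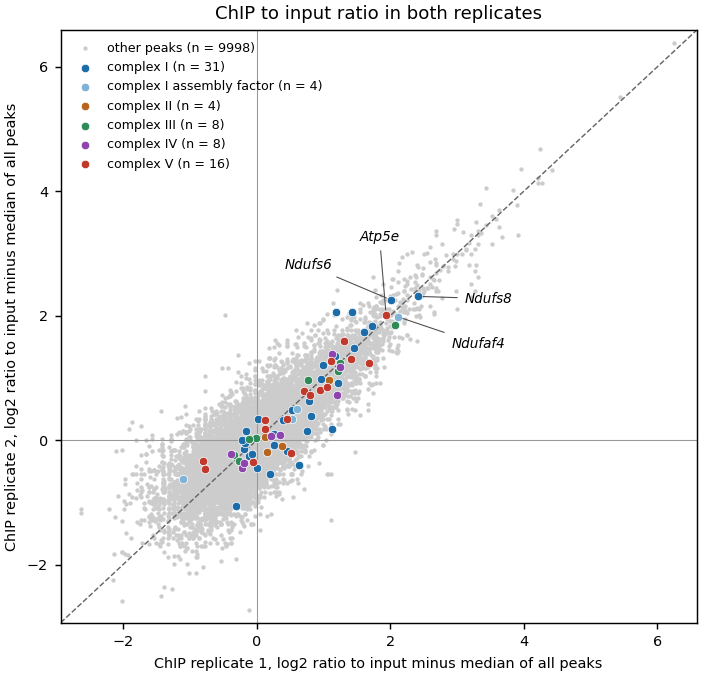
Log2 ratio of ChIP to input counts, minus the median of all peaks, in ChIP replicate 1 (x axis) and replicate 2 (y axis), for the 71 member peaks by complex (coloured) and the 9998 other peaks (grey). The dashed line marks equal values, and both axes share the 1 input library. Of the member peaks, 45 (63.4%) lie above 0 in both replicates, as do 40.3% of all peaks and 45.3% of those within 1 kb of a TSS. The peaks were called on these same ChIP reads.

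The split of the ChIP reads between the replicates was not used to choose the peaks and was tested with an exact two-sided binomial test, which compares 2 libraries and not conditions. Replicate 1 held 54.7% of the ChIP counts at member peaks and 53.95% at all peaks. No member peak differed between the replicates at an adjusted p under 0.05 (0.0993% of all peaks did), and 6 of 71 (8.45%) did at an unadjusted p under 0.05 (8.83% of all peaks). The smallest p was at Ndufc1, with 75 counts in replicate 1 and 31 in replicate 2 (exact binomial p = 0.000582, unadjusted). Ndufb10 had 61 and 27 (exact binomial p = 0.00377) and Atp5k 54 and 28 (exact binomial p = 0.0349). Of the 6, 5 were higher in replicate 1, the others being Ndufa13 and Cox8a, and Ndufb3 was higher in replicate 2.

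Peak midpoints lay mostly just downstream of the TSS. The median position was 121.5 bp downstream (quartiles 44 and 186.5 bp), against 92.5 bp (quartiles -100.5 and 244.8 bp) over all peaks within 1 kb of a TSS. Downstream lay 56 of 71 member midpoints (78.9%), against 65.8% of all those peaks. Member midpoints were measured from the TSS of the member gene, and the comparison from the nearest TSS of any gene. Between 0 and 200 bp downstream lay 39 member midpoints (54.9%), against 36.0%. By annotation, 25 midpoints were in an intron, 22 in a coding exon, 9 in a 5′ UTR and 15 upstream of the gene. The TSS itself was inside the peak at 39 of the 71. Among peaks with the midpoint 0 to 200 bp downstream 23 of 39 member peaks (59.0%) and 20.1% of 2061 others held AGGTCA.

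**Figure D5:**
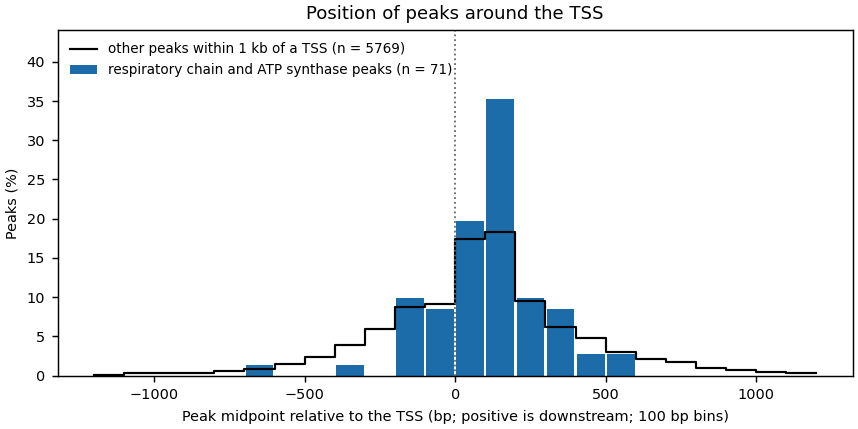
Percent of peaks (y axis) by distance of the peak midpoint from the TSS in 100 bp bins (x axis, positive is downstream on the strand of the gene), for the 71 member peaks (bars) and the 5769 other peaks within 1 kb of a TSS (line). The tallest bin, 100 to 200 bp downstream, holds 35.2% of member peaks and 18.3% of the others.

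Some of these peaks lay near the TSS of a second gene too. Another gene had a TSS within 1 kb at 29 of 71 member peaks (40.8%, Wilson 95% interval 30.2% to 52.5%), in 28 of them on the opposite strand, against 17.8% of the peaks near a TSS. The share depends on the distance allowed. The TSS of the other gene was inside the peak at 8.45% of member peaks, and at least 2 genes had their TSS inside the peak at 5 of 71 (7.04%), against 2.69% of the peaks near a TSS. Counts at such peaks cannot be assigned to either gene. Among them were strong peaks named above, at Ndufa2 (beside Ik), Ndufa11 (Vmac), Sdha (Ccdc127), Atp5pb (Wdr77) and Atp5a1 (Haus1). The partners included other mitochondrial genes, Mrpl47 (a mitochondrial ribosomal protein) beside Ndufb5 and Timm8b (a protein import chaperone) beside Sdhd. Both Atp5j peaks were within 1 kb of the TSS of Gabpa, which encodes the ETS factor named above. The first had 8, 75 and 61 counts and the second 12, 36 and 43. Shared and unshared member peaks had median ChIP counts of 55.5 and 55.2.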

How the data were processed

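The authors deposited 1 table of whole-number counts per library, giving the reads that fell in each peak. Per the study's methods and the submitters' processing notes, Trim Galore 0.6.7, Bowtie2 (local alignment to mm10) and Picard 1.110 (duplicate removal) were run before HOMER 4.11.1 called peaks on both ChIP replicates together, and peaks were then set to 300 bp. The rule by which a read was counted in a peak was not stated in those sources.

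Counts at all 10069 peaks, with no filter, were fitted with edgeR 4.0.16 (TMM, glmQLFit and glmQLFTest, R 4.3.3), 2 ChIP libraries against 1 input, and adjusted over all peaks. Libraries were scaled on the counts at peaks, so a log2 ratio is relative to the typical peak. For SE and p, the input is assumed to vary like the ChIP libraries. DESeq2 1.42.0 was an alternative. Replicates were compared with exact binomial tests (scipy 1.17.1). Both methods were tested on simulated data. TSS, exons and sequences came from RefSeq GRCm38, whose curated transcripts numbered 45756, and 5 peaks on unplaced contigs were given no position. Motifs were matched exactly on both strands.

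Genes, lists and motifs were chosen with earlier results of these data known. Named peaks were the 4 strongest of complexes I, III, IV and V, all of complex II, Cyc1 and core complex I, those past a threshold and those at the distance limit. The Ndufb, Atp5, Uqcr, Cox and Idh3a peaks named beyond these, the reversed half-site and the intronic stretches in place of upstream ones were chosen after their values were seen. The values of 2 genes that this rule names are not reported here.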

Additional observations from a re-analysis of the deposited data

How the results depend on the processing

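The 68 genes with a peak fell to 39 when the peak had to overlap a TSS (40.2% of members, 11.4% of protein-coding genes) and stood between 64 and 69 under the 6 other settings of distance and annotation. The 7 peaks above the typical peak fell to 3 with DESeq2 size factors in edgeR (39 of all peaks) and to 3 with DESeq2 (22 of all 699 given an adjusted p), which gave 21 of the 71 an adjusted p. Both times these were Ndufs8, Ndufs6 and Atp5e. Ndufa2 also lost its call without TMM. With at least 10 input counts, 29 member peaks were tested and 6 were above (58 of all 2427 tested). Only 3 of the 7 could be tested there and each kept its call, while Sdha, Ndufa11 and Atp5mpl were added. The median log2 ratio ranged from 0.34 to 0.53 when either ChIP replicate was left out and from 0.41 to 0.46 under the other settings. The share with the extended motif was 5.63% in the central 100 bases and 64.8% for AGGTCA alone. For AGGTCA, the central 200 and 100 bases (added after seeing the data) gave 52.1% and 21.1%. The share of promoters shared with another gene fell to 8.45% when the other TSS had to be inside the peak and to 7.04% when both had to be (added after seeing the data). No paired analysis was possible because 1 input, whose label carries no replicate number, serves both ChIP libraries. The single input, with a median of 8 counts at member peaks, limits every ratio, and leaving out a ChIP library leaves no test.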

Other observations

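Other genes of energy metabolism and of mitochondrial biogenesis were counted in the same way, beside the 28.1% of protein-coding genes with a peak. All 10 genes for electron carriers and shuttles had one. Cycs, cytochrome c, which carries electrons from complex III to complex IV, had 19 input counts and 210 and 180 ChIP counts, and Etfa, which feeds electrons from fatty acid oxidation, had 13, 117 and 102. Of 16 citrate cycle and pyruvate dehydrogenase genes, 12 had a peak, among them Ogdh (9, 87 and 69) and Idh3a (10, 84 and 51), and Cs, Dlat, Dld and Idh3b had none. Of 39 assembly factors outside the families above, 29 had one, led by Coa5 (11, 96 and 83) and Coa7 (12, 98 and 73). Glycolysis had a peak at 7 of 14 genes, led by Pfkm (3, 139 and 106) and Eno1 (6, 79 and 77), while Gapdh, Ldha and Tpi1 were among those without. Of 18 regulators of mitochondrial biogenesis, 11 had a peak, led by Gabpa, through the peak it shares with Atp5j, and Gabpb1 (3, 55 and 49). Nrf1, Esrra, Ppargc1a and Ppargc1b had none.

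The half-site AGGTCA was present in 6 of 12 citrate cycle peaks, 8 of 29 assembly factor peaks (27.6%), 5 of 13 biogenesis regulator peaks (38.5%), 3 of 10 carrier peaks and 3 of 10 glycolysis peaks, against 46 of 71 peaks of the respiratory chain and ATP synthase genes and 25.2% of the other peaks within 1 kb of a TSS. These lists are small, and the differences were not tested.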
